A study of Cucumis sativus with 6 samples.

Results

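The 7 genes described here are Csa1G024150, Csa4G006150, Csa5G590140, Csa3G047870, Csa3G810500, Csa6G401340 and Csa6G007450, taken from the 23955 genes of a cucumber ovary RNA-seq table. They were chosen on these same data. Each was at least 3-fold lower in the mean of the *Csalc* mutant than in the mean of the wild type (WT), and each was highest in the WT library in which *CsRALF19* (Csa6G484570) was highest. *CsRALF19* served as the reference and is not a member. The size of the difference and the highest WT library are therefore given as descriptions, without a test.

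The study compared 3 WT libraries with 3 *Csalc* libraries of pollinated ovaries, stigma included, collected 32 h after pollination. All plants were of the inbred line XTMC, a North China type cucumber. The mutant is a homozygous CRISPR-Cas9 knockout with a frameshift in the first exon of *CsALC*. The study made several such lines, and the labels do not say from which the libraries came, nor which pollen was used. The replicates were called biological, and nothing further says which plants they came from.

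ALCATRAZ (ALC) is a basic helix-loop-helix (bHLH) transcription factor related to SPATULA and is known in *Arabidopsis* for its part in fruit opening. After pollination, pollen tubes grow through the transmitting tract of the pistil and then turn towards the ovules. Rapid alkalinization factors (RALFs) are small secreted peptides rich in cysteine that bind receptor kinases, and in *Arabidopsis* RALF4 and RALF19 keep the pollen tube wall intact while the tube grows. The sample was the upper part of the ovary, a mixture of tissues that can hold ovules, placenta, transmitting tract and pollen tubes, so fewer cells of a type and less RNA per cell cannot be told apart.

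The deposited values were means of each group in normalized counts, that is, reads divided by a size factor that corrects for the depth of a library. The mutant column carried the heading spt2, and it was taken as *Csalc* because the study's list of changed genes gives the same values under that name for all 28 genes listed. Since every mean is built from whole reads divided by the size factor of their library, and these factors differ, the reads of each library could be recovered for these genes. Within each group the letters a, b and c stand for the libraries in falling order of size factor, and they carry no replicate number. The size factor was 1.06 in WT a, 1.01 in WT b and 0.782 in WT c, and 1.07 after rounding in each *Csalc* library. All 7 genes had a single combination of reads in both groups.

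All 7 genes were lower in *Csalc*, from 3.26-fold for Csa5G590140 to 36.8-fold for Csa3G810500, with a median of 7.80-fold. The log2 ratio, *Csalc* over WT, of the group means ran from -5.20 to -1.70 with a median of -2.96. Over the 18593 genes whose WT mean reached 10 normalized counts the median log2 ratio was -0.01, with quartiles of -0.14 and 0.12. Among them 68 genes, or 0.366%, were at least 3-fold lower in *Csalc*, and the 7 genes are among these by choice. Of the 7, 3 are in the study's list of changed genes and carry an annotation there. The other 4 are not in that list and have no annotation in the sources used here.

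**Figure D1:**
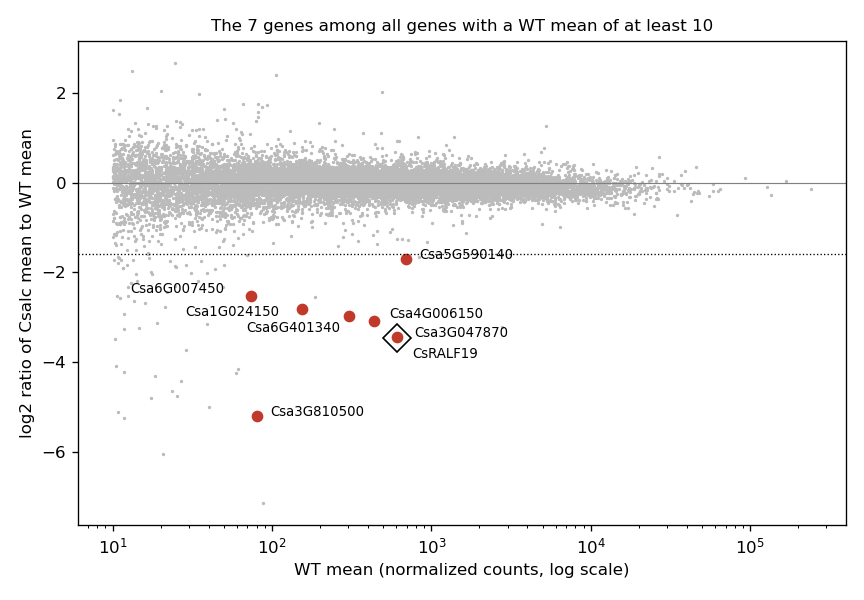
Each point is a gene whose WT mean reached 10 normalized counts, with that mean on the x axis (log scale) and the log2 ratio of group means, *Csalc* over WT, on the y axis. The 7 genes (red) lie below the dotted line of a 3-fold lower mean, from -5.20 to -1.70, while the quartiles of all genes are -0.14 and 0.12; the open diamond is *CsRALF19*, on which the point of Csa3G047870 falls.

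Csa1G024150 is annotated as a transcription factor with a bHLH domain, the domain class to which ALC itself belongs; such proteins bind DNA as dimers. Its normalized counts were 111 in library a, 231 in b and 122 in c of WT. In *Csalc* they were 12.1 in a, 20.5 in b and 32.8 in c, the order in which the values of every gene are given. The highest *Csalc* library was thus below the lowest WT library, by 3.40-fold. The mean was 155 ± 66.3 (SD, n = 3) in WT and 21.8 ± 10.4 (SD, n = 3) in *Csalc*, a log2 ratio of -2.83. Counting error alone gave an exact binomial (Clopper-Pearson) 95% interval of 5.58 to 9.39 for the 7.09-fold difference. It covers reads drawn from these libraries only, and reads amplified by PCR are not independent molecules.

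Csa4G006150 is annotated as a fatty acid desaturase of type 1, and desaturases are enzymes that put a double bond into fatty acids. Its normalized counts were 257, 656 and 393 in the WT libraries and 57.8, 48.5 and 46.9 in the *Csalc* libraries. WT library b stood well above the other two, while the 3 *Csalc* libraries lay close together. The coefficient of variation, that is the SD as a percent of the mean, was 46.6% in WT and 11.5% in *Csalc*, where counting error alone would give 13.5%. The mean was 435 ± 203 in WT and 51.0 ± 5.88 in *Csalc* (SD, n = 3 each), 8.53-fold lower.

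Csa5G590140 is annotated as a lysine and histidine transporter, a protein that carries amino acids across membranes. It had the smallest difference of the 7, with 511, 869 and 683 normalized counts in the WT libraries and 153, 356 and 125 in the *Csalc* libraries. *Csalc* library b stood above the other *Csalc* libraries, and its value came within 1.43-fold of the lowest WT value. The means were 688 ± 179 and 211 ± 126 (SD, n = 3 each), a log2 ratio of -1.70. The difference was 4.96-fold without *Csalc* library b. It was under the 3-fold of the choice in 3 cases, at 2.86-fold without *Csalc* library a, 2.70-fold without *Csalc* library c and 2.83-fold without WT library b. The recovered *Csalc* reads missed the deposited mean by 3.29e-08, within its last digit (a rounding of 5e-08), and the next combination missed it by 6.9e-08. That combination would give 136 in library a, 193 in b and 305 in c, all still below the lowest WT value, so the place of *Csalc* library b rests on a narrow margin.

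Of the 4 genes without an annotation, Csa3G047870 had a difference close in size to that of *CsRALF19*, which was 11.0-fold lower in *Csalc*. Its normalized counts were 348, 1020 and 461 in the WT libraries and 36.3, 75.5 and 56.2 in the *Csalc* libraries. The lowest WT library exceeded the highest *Csalc* library by 4.60-fold. The means were 609 ± 360.0 in WT and 56.0 ± 19.6 in *Csalc* (SD, n = 3 each), 10.9-fold lower, and 7.21-fold lower without WT library b.

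Csa3G810500 had the largest difference of the 7 and the fewest reads in the mutant. Its normalized counts were 31.2, 145 and 64.0 in the WT libraries, from 230 reads in all, and 1.86, 3.73 and 0.937 in the *Csalc* libraries, from 7 reads in all. The spread over the *Csalc* libraries, 65.3%, was about that of counting error, 65.5%. The 36.8-fold difference had a counting interval of 17.7 to 93.1, and it was 21.9-fold without WT library b and 57.2-fold without *Csalc* library b. Its size is therefore poorly fixed, although the lowest WT library was 8.36-fold above the highest *Csalc* library.

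Csa6G401340 had 133, 436 and 348 normalized counts in the WT libraries and 37.3, 56.9 and 23.4 in the *Csalc* libraries. WT libraries b and c were both far above WT library a, the lowest. The means were 306 ± 156 and 39.2 ± 16.8 (SD, n = 3 each), 7.80-fold lower in *Csalc*.

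Csa6G007450 had 30.2, 105 and 85.7 normalized counts in the WT libraries and 14.9, 12.1 and 11.2 in the *Csalc* libraries. The *Csalc* values rested on 12 to 16 reads each, and their spread of 15.0% was below the 27.1% of counting error. The means were 73.5 ± 38.7 and 12.8 ± 1.91 (SD, n = 3 each), 5.76-fold lower, with a counting interval of 4.01 to 8.08.

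**Figure D2:**
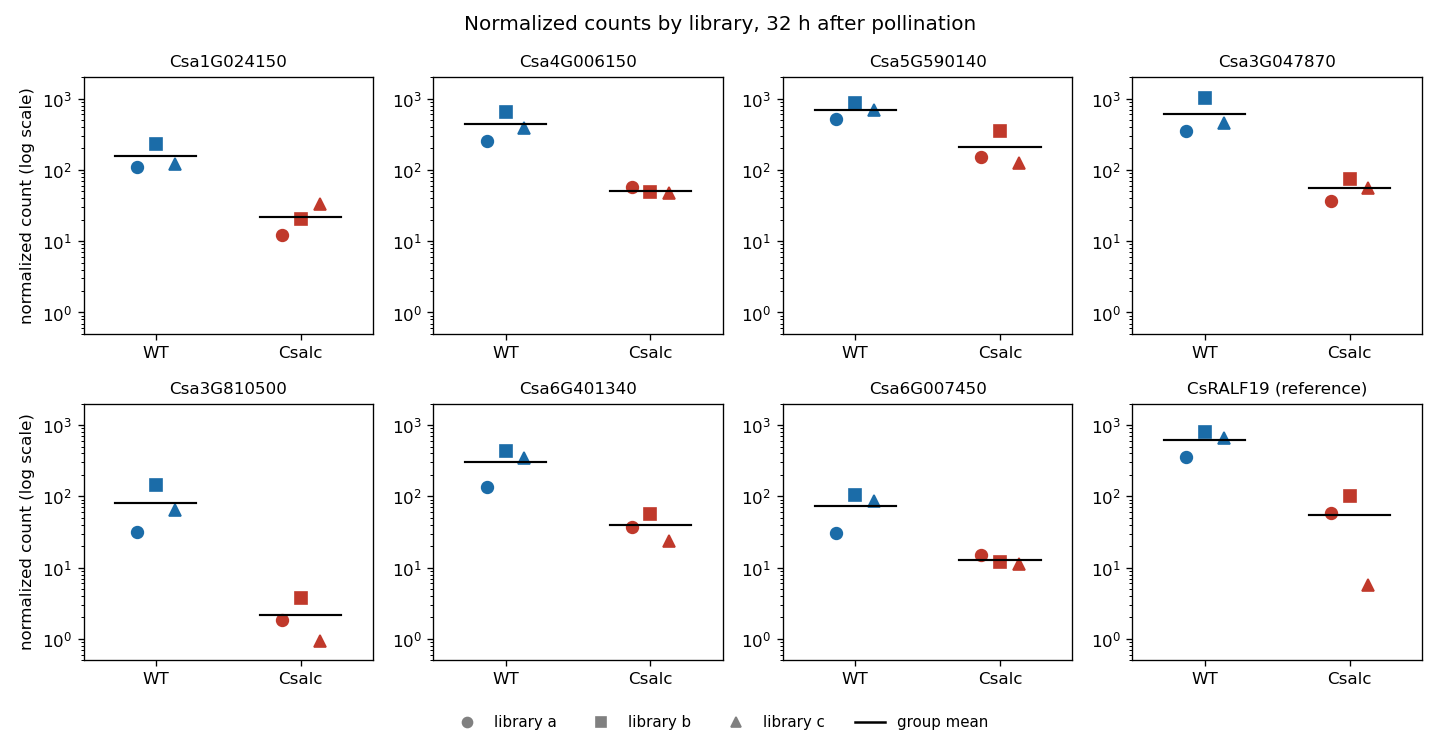
Normalized counts (log scale) of each of the 7 genes and of *CsRALF19* in the 3 WT and 3 *Csalc* libraries, with a symbol for each library and a line at the group mean. In every panel WT library b is the highest point, and the WT and *Csalc* points do not overlap; Csa5G590140 comes nearest, with 511 in WT library a and 356 in *Csalc* library b.

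Within WT the 7 genes shared more than the highest library. All 7 had the order b, c, a from high to low, so that WT library a was lowest for each. The place of b was part of the choice and the order of c and a was not. Of the 10555 genes with WT reads recovered and a WT mean reaching 10, 2930 or 27.8% were highest in b. Of those 2930, 1494 had the order b, c, a, about as many as did not. The share of 14.2% that this order has over all 10555 also counts genes not highest in b. Since being highest in b was fixed by the choice, the 2930 are the fitting comparison for the order of c and a. Among them this order was common, so sharing it says little about the 7. The ratio of library b to library a ran from 1.70 for Csa5G590140 to 4.66 for Csa3G810500, with a median of 2.93, and a ratio above 1 was fixed by the choice. Over the 2228 genes whose WT mean reached 50 and that were highest in b, as the 7 were chosen to be, the median ratio was 1.17 with quartiles of 1.07 and 1.36.

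The spread of the 7 genes over the WT libraries is a description too, since a high value in b adds to it. Their coefficient of variation in WT ran from 26.0% for Csa5G590140 to 73.3% for Csa3G810500, with a median of 51.0%. Over the same 2228 genes highest in b the median was 12.3%, with quartiles of 7.18% and 20.1%. The value of Csa5G590140 exceeded that of 85.4% of these genes and that of Csa3G810500 exceeded 99.4%. *CsRALF19*, at 37.5%, exceeded 94.5%.

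In WT, 186 genes with a mean of at least 50 had the order b, c, a and a b to a ratio of at least 1.70, the lowest ratio of the 7. Of these, 9 or 4.84% were at least 3-fold lower in *Csalc*, against 13 or 0.156% of the 8322 genes with recovered WT reads and a mean of at least 50. The 9 are the 7 genes, *CsRALF19* and Csa7G073680, and the 7 entered by choice with *CsRALF19* as their reference, so the share is no result about the pattern. Without the 7 and *CsRALF19*, the remaining 178 genes had a median log2 ratio of -0.21, against 0.02 over the 8314 recovered genes without them. Of the 178, 1 was at least 3-fold lower in *Csalc*, 4 were at least 2-fold lower and 3 were at least 2-fold higher. Taking genes for a high value in WT library b can by itself raise their WT mean, so this median is a description without a test.

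**Figure D3:**
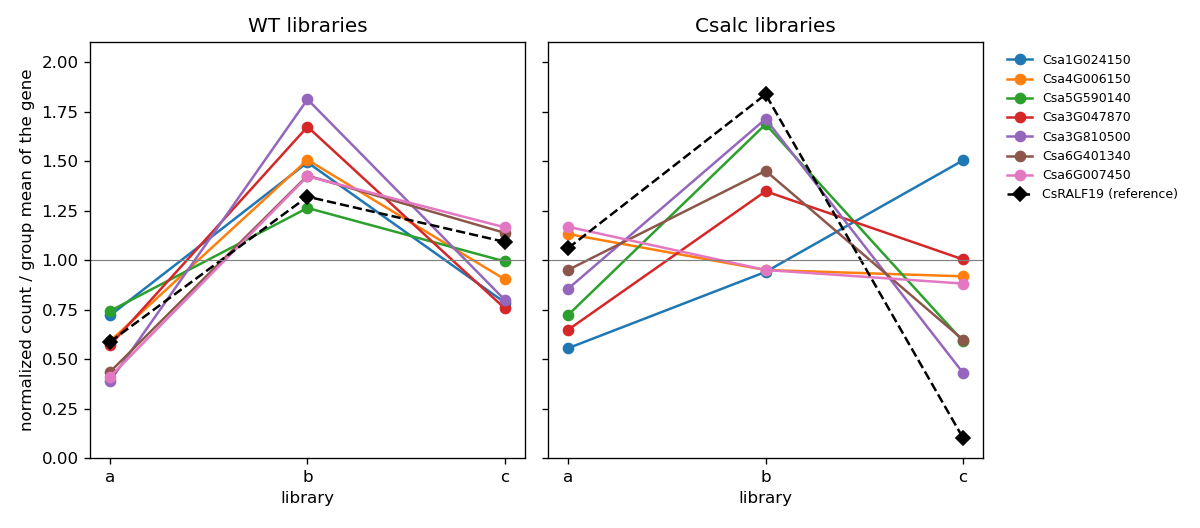
Normalized counts of each of the 7 genes and of *CsRALF19* in each library (x axis), divided by the mean of the same gene in that group (y axis); the lines only join the points of a gene. The 7 lines keep the order b, c, a in WT but cross in *Csalc*, where *CsRALF19* lies far below its other libraries in library c, at 5.62 normalized counts.

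In *Csalc* the 7 genes had no common order. The highest library was a for 2 genes, b for 4 and c for 1, and the lowest was a for 2 and c for 5. The highest *Csalc* value was between 1.23 and 3.98 times the lowest. For *CsRALF19* it was 18.1 times the lowest, with 58.7, 102 and 5.62 normalized counts in libraries a, b and c from 63, 109 and 6 reads. None of the 7 genes had a gap of that size in *Csalc* library c, and the reason for the difference was not tested. In WT *CsRALF19* had 357, 803 and 664 normalized counts, in the order that the 7 genes share. Its difference ran from 7.58-fold without *Csalc* library c to 18.9-fold without *Csalc* library b.

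The sum over the 7 genes was 1422, 3462 and 2155 normalized counts in the WT libraries, and 313, 573 and 296 in the *Csalc* libraries. All 3 *Csalc* values lay below all 3 WT values for each of the 7 genes. Of the 4767 genes with reads recovered in both groups and a WT mean reaching 10, 284 or 5.96% had this arrangement. Recovery in *Csalc* was less complete for higher means, so these 4767 genes lean to genes that are low in the mutant. Since the 7 were picked for a low *Csalc* mean, their count adds nothing to the choice.

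**Figure D4:**
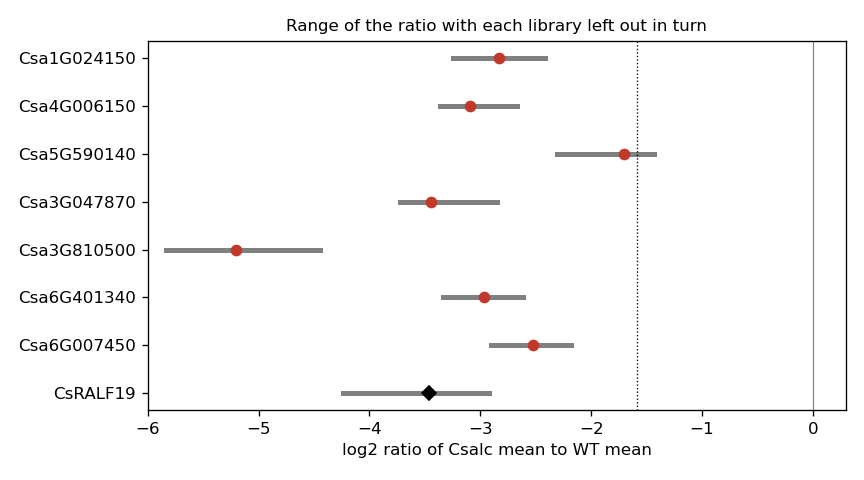
Log2 ratio of group means (*Csalc* over WT) for the 7 genes and *CsRALF19*, on the x axis, with points for all 6 libraries and bars for the range when leaving out each library in turn. The ratio kept its sign in every case, and among the 7 only the bar of Csa5G590140 crossed the dotted line of 3-fold, at -1.43 without *Csalc* library c.

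The threshold of 3-fold and the mean level set which genes belong. Among genes whose WT mean reached 10, 66 of the 68 that were at least 3-fold lower had their WT reads recovered, and 26 were highest in WT library b, 24 in a and 16 in c. At a mean of at least 50 the count was 15, with 13 recovered, of which 11 were highest in b. Over all 8322 recovered genes at that mean, 2228 or 26.8% were highest in b. At a mean of at least 100 the count of genes at least 3-fold lower was 9, with 7 recovered. These were all highest in b and lowest in a, and 5 of them belong to the set described here. The place of b was part of the choice for the set, so these counts are no result about it. The 11 genes at a mean of 50 are the 7, *CsRALF19* and 3 genes outside the set. Csa7G073680, annotated as a cytochrome P450, had 136, 232 and 193 normalized counts in WT and 18.6, 54.1 and 22.5 in *Csalc*, 5.90-fold lower. Csa4G333120 was 3.03-fold lower with means of 69.8 and 23.0, and the unannotated transcript Novel00265 had a mean of 88.1 in WT against 0.625 in *Csalc*.

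The genes nearest the threshold were sought among those highest in WT library b, with recovered reads and a WT mean of at least 100. Just inside it were Csa5G590140 at 3.26-fold and Csa7G073680 at 5.90-fold. Csa5G647250 was nearer, at 3.13-fold, but lay above the limit of the search for reads. Just outside, among the same genes highest in b, were Csa2G028500 at 2.56-fold, with means of 455 and 178, and Csa3G850600 at 2.54-fold, with means of 101 and 39.8. At a WT mean of at least 50, the 2 recovered genes that were at least 3-fold lower but not highest in WT library b, Csa2G356040 and Csa7G037450, were lowest in it, at 8.89 and 13.8 normalized counts. A search extended to Csa5G647250 gave 368, 1407 and 745 in the WT libraries, the order b, c, a. Csa3G873800, also above the limit, was 9.38-fold lower, but its reads could not be fixed to a single combination.

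The genes outside the set with the most similar pattern over the 6 libraries were found by Pearson's r of log2(normalized count + 1) with the mean profile of the 7. They were Csa7G407810 at r = 0.983, Csa7G389490 at 0.980, Csa5G612810, annotated as a pectinesterase, an enzyme that modifies cell wall pectin, at 0.977, Csa3G744990 at 0.972 and Csa7G073680 at 0.972. The 7 genes themselves had r of 0.945 to 0.998 with that profile, but it includes their own values, which raises r. *CsRALF19*, which is not part of the profile, had 0.894. Among the 4767 genes compared, the 7 ranked from 1 to 24 by r and *CsRALF19* ranked 61. The 6 points hold the difference between groups on which the 7 were chosen, so r is a description without a test, and the list changed when libraries were left out. Their log2 ratios ranged widely, from -5.01 for Csa7G407810 and -2.56 for Csa7G073680 to -1.40 for Csa5G612810, -0.75 for Csa3G744990 and -0.69 for Csa7G389490.

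The genes with identifiers next to the 7 did not share the low *Csalc* means. Of 14 neighbours none was at least 3-fold lower. Only 0.366% of all genes whose WT mean reached 10 were, so this count says little about the neighbours. Among those with both means above 10 the log2 ratio ran from -0.40 for Csa1G024140 to 0.78 for Csa6G007440. The lowest ratio, -1.16 for Csa1G024160, came from means of 2.78 in WT and 1.25 in *Csalc*. Neighbouring identifiers were taken as neighbours in the table, since no coordinates were used here.

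Marker genes of the transmitting tract and of pollen were read beside the 7. *CsALC*, the edited gene, had a mean of 395 in WT and 238 in *Csalc*, a log2 ratio of -0.73, and its frameshift need not remove its RNA, so this is no check of the labels. Csa6G491000, taken as the SPATULA gene of cucumber and a transmitting tract marker, had a mean of 222 in WT and 242 in *Csalc*. *CsRALF4* (Csa6G199790) had 7 reads in WT a, 3 in WT b and 12 in WT c, against 0, 3 and 0 in *Csalc*. Its mean was 8.91-fold lower in *Csalc*, with a counting interval of 2.48 to 43.1, and its lowest WT value was 1.06 times its highest *Csalc* value. It was lowest in WT library b, where the 7 were highest. The summed level of *CsRALF4* and *CsRALF19*, the markers set for pollen and pollen tubes, was 364, 806 and 679 in WT and 58.7, 104 and 5.62 in *Csalc*. Nearly all of it was *CsRALF19*, the gene used to choose the 7, so the sum is no independent measure of pollen. Both genes are also known from the transmitting tract and ovules of cucumber. The part of pollen tube RNA in the low values of the 7 genes was not tested. The summed mean of *CsALC* and Csa6G491000 was 617 in WT and 480.1 in *Csalc*, and *CsALC*, the edited gene, accounts for the lower sum.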

How the data were processed

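Ovaries at 32 h after pollination were sequenced by Illumina paired reads, 3 libraries each of WT and *Csalc*. Per the sources, the authors mapped reads to the Chinese Long V2 sequence; the submitters' processing notes name STAR and DESeq2. The counting program and strand setting are not given in the sources used here. The deposited table holds, for each gene, a normalized count signal as a group mean, and the authors' own fold changes, p-values and significance calls, none of which were used. Column totals were 24327785 in *Csalc* and 25221451 in WT.

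Reads per library were recovered by finding size factors and whole read combinations that give each mean, for means up to 700. The method was tested on data simulated from genes with lower means. The WT means of Csa4G006150, Csa5G590140, Csa3G047870, Csa6G401340 and *CsRALF19* lay above the means of those genes, so the test was not set at their level. A single combination was found for 13314 of 13314 genes in WT and 7462 of 13242 in *Csalc*. Group means were compared as log2 ratios without a pseudocount, and no test was run because the genes were chosen on this contrast. The members and lists were chosen with earlier results of these data known. Named genes are the 7 members, *CsRALF19*, *CsRALF4*, *CsALC*, the 5 genes with the highest correlation, the genes nearest the threshold, the marker Csa6G491000 and the neighbours by identifier. Csa4G333120, Novel00265, Csa2G356040, Csa7G037450, Csa5G647250 and Csa3G873800 were named after their values were seen, as the other genes at least 3-fold lower. A RefSeq gene table of 23999 genes matched none of the 7 identifiers, so no sequence or coordinate is given. Counting intervals are 95% and cover counting error only.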

Additional observations from a re-analysis of the deposited data

How the results depend on the processing

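The log2 ratio of each of the 7 genes kept its sign in every alternative. With a pseudocount of 10 added to both means, Csa3G810500 had a log2 ratio of -2.89 in place of -5.20. The count of genes at least 3-fold lower in *Csalc*, 68 at a WT mean of at least 10, was 328 at a mean of at least 1, 15 at a mean of at least 50 and 632 with no minimum; 147 genes were at least 2-fold lower. All 7 were counted in each of these settings, and 6 of them among the 47 genes at least 4-fold lower. The count of genes whose *Csalc* libraries lay below all WT libraries, 284 of 4767 or 5.96%, was 146 or 5.76% at a WT mean of at least 50. With genes of several read combinations added, it was 526 of 10315 or 5.10% at the most even combination and 286 or 2.77% at the least even one. Of the 5 genes most similar in pattern, 2 were shared when the values were not log transformed, and 0 to 2 when a library was left out. Without one library at a time the log2 ratio ran from -3.25 to -2.42 for Csa1G024150, -3.36 to -2.67 for Csa4G006150, -2.31 to -1.43 for Csa5G590140, -3.72 to -2.85 for Csa3G047870, -5.84 to -4.45 for Csa3G810500, -3.33 to -2.62 for Csa6G401340 and -2.90 to -2.18 for Csa6G007450. No paired analysis was possible because the columns carry no replicate numbers and no test was run. The low read counts of Csa3G810500 and Csa6G007450 in *Csalc* limit how well the size of their ratios is known.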
